A study of Mus musculus with 4 samples.

Results

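Livers of 3-week-old C57BL/6N mice labelled Pnpla7 knockout (KO) were compared with livers of wild-type (WT) mice of the same strain and age, 1 microarray per genotype. Each array was hybridised with total RNA pooled in equal amounts from 5 livers, and no treatment, diet or sex is given in the labels. The series has 4 arrays. Those at 3 weeks are 2 of them, and the remaining pair, pools of 5 WT and of 5 KO livers at 6 weeks, serves below only as side values. All 4 are Agilent arrays for mouse transcripts, read in the Cy3 colour alone. They shared 1 slide, where each pool had its own position, and an effect of position cannot be told apart from one of genotype. KO and WT below are the labels of the pools.

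A gene was compared where its probe was well above background on both 3-week arrays, which 19576 of 30023 genes on the array were. Another 1771 were well above background on the KO array alone, 407 on the WT array alone and 8269 on neither. The signal is the processed intensity divided by the 75th percentile of that array (control spots left out), and the ratio is the log2 of KO over WT. With 1 array per genotype there is no replicate check and no test, so genes are described by the size of their ratio, with 2-fold as the threshold. The only error that can be measured is that between spots of 1 array: 214 probes printed 10 times each give a ratio from single spots an SD of 0.0930 on the log2 scale, which leaves out all differences between pools. In bulk tissue, fewer cells of a type and less RNA per cell cannot be told apart.

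PNPLA7 is a lysophospholipase of the patatin-like family that removes the remaining acyl chain from lysophosphatidylcholine and so yields glycerophosphocholine, from which free choline can be released. Choline is oxidised to betaine in the liver, and betaine returns a methyl group to homocysteine in the methionine cycle, the link named in the title of the series. The mouse liver around weaning is also a changing organ: blood formation has left it, fetal genes such as Afp are being shut down, hepatocytes still divide, and the male and female programmes of gene expression set by growth hormone are not yet mature.

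Most genes had similar signals in both pools. Of the 19576 genes compared, 18212, or 93.0%, lay within 1.5-fold, the median ratio was -0.01 on the log2 scale, and the SD of the ratios was 0.44. At least 2-fold higher in KO were 279 genes, or 1.43%, and 281, or 1.44%, were at least 2-fold lower. The shares of genes past 2-fold were highest among dim genes, at 6.90% in the third decile of signal against 0.715% in the tenth. Among the 8207 genes with a mean signal of at least 1, the 75th percentile, 38 (0.463%) were higher and 22 (0.268%) lower.

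In both directions, the array that alone lay outside the range of the 6-week arrays was more often the one with the higher signal. Genes were chosen by the ratio of the compared arrays, and the 6-week arrays also differ in age. The counts that follow therefore do not show which array set a ratio. Of the 279 higher genes, the KO array alone lay more than 2-fold outside the range of both 6-week arrays for 92, and the WT array alone for 33. Both lay outside it for 39 and neither for 115. Of the 281 lower genes, the WT array alone did so for 126 and the KO array alone for 26, both for 35 and neither for 94. More spots were well above background on the KO array (30697 of 43020) than on the WT array (28714), and its dimmest signal counted as above background was lower, at 0.0101 against 0.0151.

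**Figure D1:**
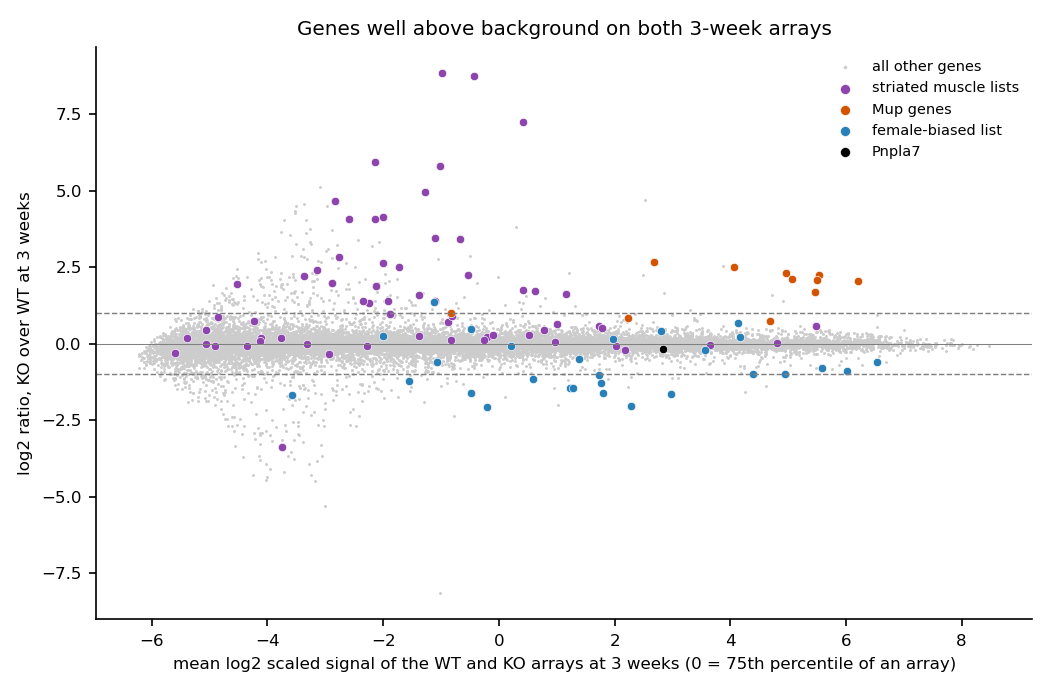
Log2 ratio of KO over WT at 3 weeks against the mean log2 signal of both arrays, 1 point per gene for the 19576 genes well above background on both, with 2-fold marked by dashed lines. The cloud is narrowest at high signal, where the Mup genes (orange) stand above it and the female-biased genes (blue) mostly below, while striated muscle genes (purple) reach the highest ratios and Pnpla7 (black) lies near 0.

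Pnpla7 was read by 1 probe, placed by the files at chr2:24908961-24909192 of mouse build mm9, a span of 232 bases for a probe of 60. The probe is shown because it is the only check of the genotype that the array holds.
Pnpla7 probe: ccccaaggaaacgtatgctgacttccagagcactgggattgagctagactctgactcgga
Its signal was 7.54 in WT and 6.70 in KO, a log2 ratio of -0.17. The value lay well within the 1.5-fold band that held most genes. The labels do not say which exons the deletion removed, and a probe that lies elsewhere in the gene is no check of it, so the directions below rest on the labels.

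Genes around the enzyme's substrate and products had similar signals in both pools. Of 23 genes of choline and phosphatidylcholine metabolism 22 were measured on both arrays, and the median ratio was -0.05. Past 2-fold higher was 1 of them, where 1.43% of all genes compared were. That gene was Gdpd3, a glycerophosphodiester phosphodiesterase, at 0.227 in WT and 0.546 in KO, a log2 ratio of 1.27. Gpcpd1, which cleaves glycerophosphocholine, came next at 0.69. Pemt, which makes phosphatidylcholine by methylation, stood at -0.12 and Chka, choline kinase, at 0.10.

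The methionine cycle list, 16 of 16 genes measured, had no member past 2-fold and ran from -0.33 to 0.34. Bhmt, which passes the methyl group of betaine to homocysteine, had signals of 190.3 in WT and 170.5 in KO. Mat1a, the liver's methionine adenosyltransferase, had 71.5 and 73.1, and Gnmt, which consumes the methyl donor, 86.0 and 78.9. These are among the bright genes, for which ratios spread least. The 23 folate genes, too, had no member past 2-fold, with a median of -0.03.

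Among 26 measured genes for patatin-like lipases, lysophospholipases, lysophospholipid acyltransferases and phospholipases A2, 2 were past 2-fold, both lower. Of all genes compared 1.44% were past 2-fold lower. Pnpla3, a triglyceride lipase relative that feeding induces, had signals of 0.804 and 0.312, a log2 ratio of -1.37, and its second probe gave -1.28. Lpcat1, which re-acylates lysophosphatidylcholine, had -2.56 on one probe, at 0.218 in WT and 0.0369 in KO, but -0.44 on another. Pnpla8, named beside Pnpla7 in the title of the series, stood at 0.10, and Pnpla2, adipose triglyceride lipase, at 0.44.

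Genes of the major urinary proteins were higher in KO, and most of them are bright. Major urinary proteins (MUPs) are small pheromone-binding lipocalins that the liver secretes for excretion in urine, made in greater amount in adult males under growth hormone and testosterone. Of 12 Mup list genes on the array, 11 were well above background on both arrays. All 11 ratios were above 0, from 0.74 to 2.65 with a median of 2.07, and 8 were past 2-fold, against a median of -0.01 and 1.43% over all genes compared.

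Mup5 had a signal of 2.55 in WT and 16.03 in KO, a log2 ratio of 2.65. Mup2 had 7.07 and 39.8, a ratio of 2.49, and Mup17 14.1 and 69.9, a ratio of 2.31. In each of these the KO pool was about as bright as the WT pool at 6 weeks, which had 18.1, 44.8 and 80.1 for Mup5, Mup2 and Mup17. Mup18, Mup9, Mup19 and Mup4 followed at 2.24, 2.07, 2.06 and 1.69. For Mup5, Mup2, Mup17, Mup18, Mup20, Mup9, Mup19 and Mup4, the WT array at 3 weeks, and not the KO array, lay more than 2-fold outside the range of the 6-week arrays.

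Mup20, known as darcin, the male scent protein, had 16.1 in WT and 70.3 in KO, a ratio of 2.13 on one probe and 2.53 on a second. Its KO signal lay above both 6-week arrays, at 46.4 and 48.3. The 3 Mup genes short of 2-fold were Mup6 at 0.99, Mup21 at 0.84 and Mup3 at 0.74, from signals of 0.400, 3.54 and 19.9 in WT to 0.793, 6.31 and 33.4 in KO. The summed signal of the 11 genes was 167.7 in WT and 660.1 in KO at 3 weeks. The sums at 6 weeks were 745.8 and 1089, so the WT pool at 3 weeks was the lowest of the 4 arrays.

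Mup genes are near-identical copies in 1 cluster on chromosome 4, so a probe named for one may read others. The Mup5 probe, at chr4:61496097-61496156 of mm9, is shown as the one with the highest ratio, and it opens with atg, from which a reading frame runs through all 60 bases.
Mup5 probe: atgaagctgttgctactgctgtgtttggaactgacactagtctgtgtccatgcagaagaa
In the file's annotation the Mup17, Mup18, Mup19 and Mup9 probes are each listed with 3 Mup genes and the Mup2 and Mup6 probes with 2. Those of Mup20, Mup21, Mup3, Mup4 and Mup5 are listed with 1. The genes listed for the Mup9 probe are Mup1, Mup19 and Mup2, and for the Mup6 probe Mup4 and Mup6. The probes of Mup17, Mup18, Mup20, Mup3, Mup4 and Mup6 each share 20 bases with another Mup probe, so which copies a ratio belongs to is uncertain. Ratios past 2-fold are found in both sorts, with Mup5, Mup20 and Mup4 among the probes listed with 1 gene.

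The 90 bases before the start of 5 Mup genes, from RefSeq's GRCm38.p6 promoters, are shown because the genes were higher together but to unequal extent. The motif TATATAA, searched on both strands, is in capitals.
Mup19: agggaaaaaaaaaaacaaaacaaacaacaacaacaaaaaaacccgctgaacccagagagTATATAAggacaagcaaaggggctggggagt
Mup2: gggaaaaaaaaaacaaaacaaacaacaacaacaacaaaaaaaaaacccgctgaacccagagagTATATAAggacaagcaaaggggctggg
Mup4: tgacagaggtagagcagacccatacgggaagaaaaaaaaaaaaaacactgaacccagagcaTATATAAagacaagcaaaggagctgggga
Mup3: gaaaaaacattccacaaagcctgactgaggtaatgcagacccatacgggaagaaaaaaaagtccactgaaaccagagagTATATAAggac
Mup21: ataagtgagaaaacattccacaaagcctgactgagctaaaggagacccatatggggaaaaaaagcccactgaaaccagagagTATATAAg
They lie on the minus strand at chr4:61782225-61782314, chr4:60139857-60139946, chr4:59960668-59960757, chr4:62087318-62087407 and chr4:62150842-62150931. Mup19, Mup2, Mup4, Mup3 and Mup21 had ratios of 2.06, 2.49, 1.69, 0.74 and 0.84. Before the motif, Mup19, Mup2 and Mup4 read ctgaacccagag, where Mup3 and Mup21 read ctgaaaccagag. Whether a difference in sequence goes with the ratios was not tested. All 9 Mup genes with an entry hold TATATAA in the window from 250 bases before to 50 bases after the start, as do 3.24% of all 32851 windows. TTCNNNGAA, the core to which STAT5 binds, was in 0 of the 9 Mup windows and in 8.30% of all. These are matches of letters only.

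Genes known to be higher in male liver differed widely among themselves. Of 22 male-biased genes on the array 21 were measured, 14 had ratios above 0, 6 were past 2-fold higher and 0 lower, and the median was 0.22, where 1.43% of all genes compared were past 2-fold higher and 48.7% above 0. That list holds 3 of the Mup genes above, and without them 11 of 18 were above 0 and 5 past 2-fold. Slco1a1, an organic anion uptake transporter, had signals of 0.0567 in WT and 0.599 in KO, 10.6-fold higher, and its KO signal was above both 6-week arrays, at 0.248 and 0.301. With normexp background correction and quantile normalization together, its log2 ratio was 2.49 in place of 3.40.

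Hsd3b5, a male-type steroid-metabolising enzyme, had 0.128 and 0.504, a ratio of 1.97. Egfr, the epidermal growth factor receptor, had 6.68 and 14.5, a ratio of 1.12, with a second probe at 0.68 and the 6-week arrays at 6.96 and 7.43. Cyp4a12b and Cyp4a12a, fatty acid hydroxylases, had 2.07 and 1.22 but were dim, at 0.133 and 0.101 in KO, and with normexp and quantile normalization the ratio of Cyp4a12a was 0.69, short of 2-fold. Cyp2d9 and Susd4 were just short of 2-fold, at 0.95 and 0.99. At the other end Nat8 had -0.72, Slc22a28 -0.55, Cyp7b1 -0.50 and Cyp2f2 -0.47. A second probe for Slc22a28 gave 0.48, so its direction is unsettled.

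Genes higher in female liver were mostly lower in KO. Of 29 on the array 28 were measured, 21 had ratios of 0 or less, 13 were past 2-fold lower and 1 higher, and the median was -0.95, against 1.44% of all genes past 2-fold lower. The list holds cytochromes P450, transporters and other genes, and members of each kind were among the 13. Slc22a26, an organic anion transporter relative, had 1.76 in WT and 0.423 in KO, a ratio of -2.06. Slc22a27, of the same family, had 5.34 and 2.17, a ratio of -1.30.

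Cyp3a44, a cytochrome P450 high in females, had 9.94 and 2.40, a ratio of -2.05. Cyp3a41b had -1.63. Cyp3a16 had 29.9 and 14.9, just at the threshold, and a ratio of -0.97 with quantile normalization. Cyp2b13 and Cyp2b9 had -1.60 and -1.43. Of the bright members, Cyp2a4 stood at -0.91, with -1.13 on a second probe, and Sult2a2, a sulfotransferase, at -0.79.

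The remaining genes past 2-fold were Prom1 at -1.60, with a second probe at -1.55, A1bg at -1.66, Hao2 at -1.45, Akr1b7 at -1.16, Acot3 at -1.04 and Ntrk2 at -1.21. A second probe for Ntrk2 gave 1.54 and the mean over its probes -0.05, so its direction is unsettled, and the mean over the probes of Acot3 was -0.998, just short of 2-fold. Sult1e1, estrogen sulfotransferase, went the other way, from 0.288 to 0.742, a ratio of 1.36. Lpl, Cd36 and Cyp17a1 followed at 0.67, 0.47 and 0.40. For Cyp2b13, Cyp2b9 and Slc22a26 it was the KO array that lay outside the 6-week range, and for Cyp3a44, Cyp3a41b and Hao2 neither did.

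**Figure D2:**
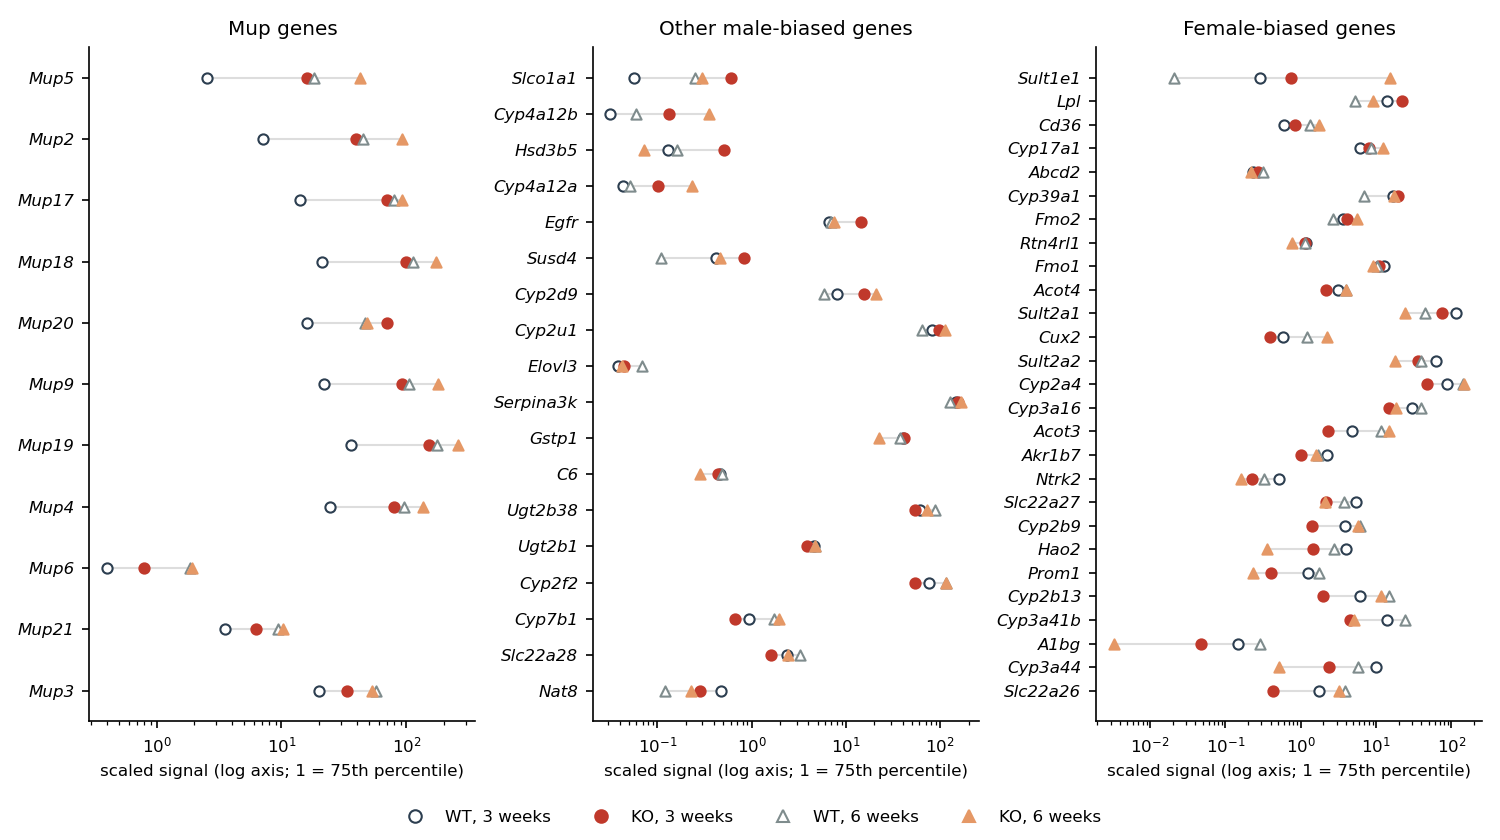
Scaled signal (log axis, 1 is the 75th percentile of an array) of Mup genes, other male-biased genes and most female-biased genes well above background on both 3-week arrays, ordered by the ratio at 3 weeks, with circles for 3 weeks, triangles for 6 weeks, open symbols for WT and filled for KO. For most Mup genes the KO circle lies beside the 6-week triangles and the WT circle far to the left, and for most female-biased genes the KO circle lies left of the WT circle. A1bg was not well above background on the KO array at 6 weeks.

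The sex of the mice in each pool is not given. Xist, transcribed from the inactive X chromosome of females, was well above background in both pools, at 1.27 in WT and 1.29 in KO. Of the Y-linked genes Ddx3y, Kdm5d and Eif2s3y none was well above background in either pool. Of the growth hormone pathway upstream, Ghr, the growth hormone receptor, had -0.24, Stat5b, its signal transducer, -0.01, and Igf1, its main secreted target, from -0.19 to -0.54 over 5 probes. Bcl6, a repressor of female-biased genes higher in males, had 0.77, from 3.37 to 5.75, and Cux2, an activator of them, -0.61. Of the 19 genes of growth hormone and IGF signalling none was past 2-fold, and the highest was Igfbp1, which binds IGFs and is induced by fasting, at 0.93, from 67.3 to 128.0.

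The 3 Cyp3a promoters are shown because near-identical copies limit what a probe or a window can separate. Each is the 90 bases before the start in GRCm38.p6, aligned with up to 4 bases of offset, on the minus strand at chr5:145805875-145805964, chr5:145584731-145584820 and chr5:145469728-145469817, and capitals mark bases that differ from Cyp3a44.
Cyp3a44: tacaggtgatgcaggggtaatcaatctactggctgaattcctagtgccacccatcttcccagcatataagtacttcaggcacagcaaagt
Cyp3a41b: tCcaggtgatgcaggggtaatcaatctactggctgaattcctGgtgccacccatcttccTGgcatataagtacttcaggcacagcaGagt
Cyp3a16: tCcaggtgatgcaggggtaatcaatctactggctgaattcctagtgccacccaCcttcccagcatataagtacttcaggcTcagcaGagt
They differ from Cyp3a44 at 5 and 4 of 90 bases. TTCNNNGAA was in 16.7% of 24 windows of the female-biased list, 5.88% of 17 windows of the male-biased list and 8.30% of all windows, shares that rest on few genes.

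The highest ratios of the comparison belonged to genes of striated muscle, most of which liver cells are not known to make. Over 125 list genes on the array, 63 were well above background on both arrays and 48 on the KO array alone, with 0 on the WT array alone. Counting lower bounds, 71 of these 111 were at least 2-fold higher in KO and 1 was lower, where 2.86% of the 21754 genes on at least 1 array were higher and 2.89% lower, 5.76% in all. Where a gene was on the KO array alone, the bound sets its KO signal against the dimmest WT signal counted as above background. Their summed signal was 109.8 in WT and 253.1 in KO, and at 6 weeks 106.7 and 217.2. Whether muscle tissue was in the pools was not tested.

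The sarcomere, the contractile unit of the fibre, set the order. Acta1, skeletal muscle actin, had 0.0237 in WT and 10.9 in KO, and Tnnc2, fast troponin C, 0.0360 and 15.2, 458.5-fold and 423.6-fold higher in KO. Tnni2, fast troponin I, had 0.109 and 16.4. Of 13 fast-fibre genes 11 were past 2-fold, and 9 of them were on the KO array alone by the brightest probe. Myl1, Myh4, Myh1, Myh2 and Tnnt3 had log2 ratios of at least 8.93, 8.38, 8.25, 8.24 and 7.66.

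The Acta1 and Myh8 probes are shown to let their identity be checked, since actins and myosins are families of near-identical genes.
Acta1 probe: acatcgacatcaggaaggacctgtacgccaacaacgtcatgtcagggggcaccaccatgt
Myh8 probe: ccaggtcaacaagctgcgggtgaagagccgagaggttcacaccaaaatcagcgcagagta
They lie at chr8:126416197-126416256 and chr11:67121925-67121984 of mm9, and each can be read in frame through all 60 bases. The array has 4 probes for Myh8, the perinatal myosin heavy chain. The one shown had a bound of 9.61, another a bound of 1.57, a further one well above background in both pools had 0.09, and the last was above it in neither. The probes disagree, so a value for Myh8 itself is uncertain.

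Slow-fibre genes were higher by less. Myh7, the slow and cardiac myosin heavy chain, had 0.0289 and 1.78, a ratio of 5.95. Myl2 had at least 5.14, Mybpc1 4.15, Myl3 4.06 and Tnnt1, slow troponin T, 1.74. In all 8 of 10 slow-fibre genes were past 2-fold, and Tnnc1 and Tpm3 were at -0.35 and 0.02, with 1.02 on a second Tpm3 probe.

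Heart-restricted genes did not follow. Of 12, 7 were measured in both pools, among them Tnnt2 at 0.10, Nppa at 0.17, Myh6 at -0.06 and Myl7 at -0.29. Myl4, an atrial light chain also made in fetal muscle and blood precursors, was at 0.10. Nkx2-5, a cardiac transcription factor, was on the KO array alone, with a bound of 3.86. Mybpc3 was lower, from 0.240 to 0.0229, a ratio of -3.39, with the WT array the one outside the 6-week range. Tnni3, Tbx5 and Sbk2 were among those above background in neither pool.

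The supporting machinery of the fibre was higher with the sarcomere. In energy supply 13 of 22 genes were past 2-fold, led by Ckmt2 and Mb, mitochondrial creatine kinase and myoglobin, at no less than 7.60 and 7.49, and Ckm, cytosolic creatine kinase, at no less than 5.78. Cox6a2 and Cox8b, muscle forms of cytochrome c oxidase subunits, had 5.80 and 3.41. In excitation and calcium handling 11 of 19 were, among them Sln, sarcolipin, at no less than 6.20, Cacna1s, the voltage sensor, at 4.08 and Ryr1, the release channel, at no less than 3.90. At the neuromuscular junction 1 of 7 was, Chrnb1, at no less than 2.78.

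Among actin, Z-disc and M-band genes 24 of 33 were past 2-fold, with Tcap, Ttn (titin) and Myot at no less than 6.88, 6.32 and 6.04. Of 10 transcription factors 3 were, among them Vgll2, at no less than 4.03. Myf6, the myogenic factor kept in mature fibres, had 0.0219 and 0.0853, a ratio of 1.96, or 0.81 with normexp and quantile normalization. Myod1, Myog and Myf5, factors of dividing and differentiating myoblasts, were above background in neither pool.

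Tpm1 is a gene whose probes disagreed. It encodes muscle and non-muscle tropomyosins from alternative exons and has 5 probes. By the brightest the ratio was -0.20, from 4.86 to 4.23, and 2 others gave -0.09 and 0.07. The remaining pair gave 4.92, from 0.270 to 8.18, and 4.94, from 0.202 to 6.19. Likewise Pvalb, parvalbumin, had 2.23 by its brighter probe, from 0.320 to 1.504, while on its other probe the signal was 0.00442 in WT, not above background, and 0.268 in KO.

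**Figure D3:**
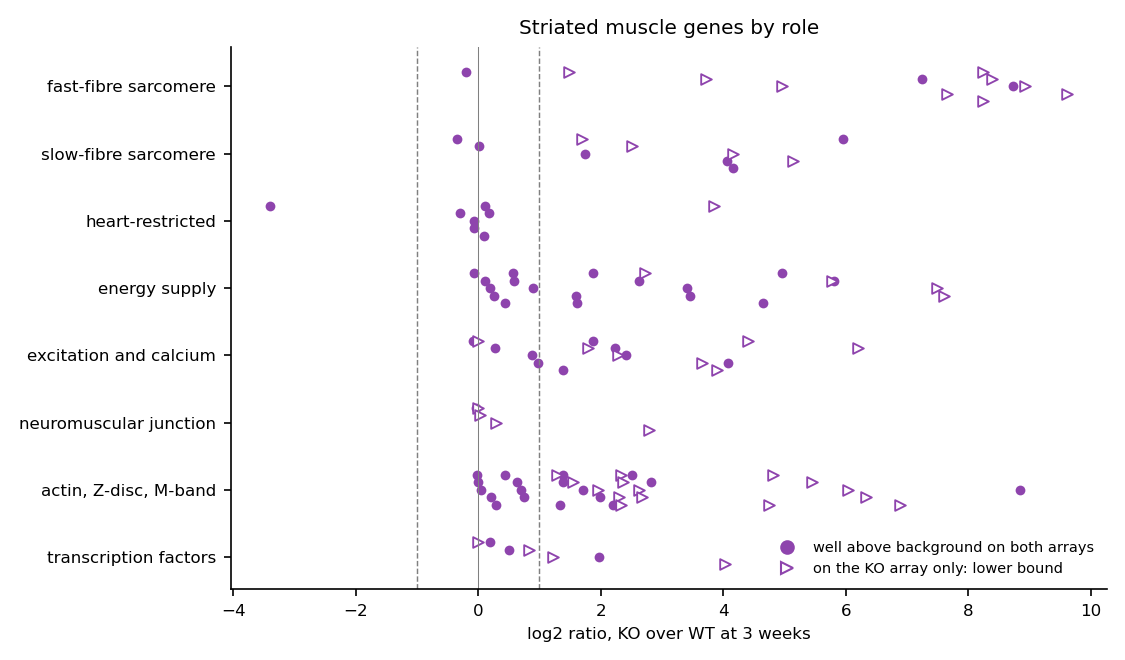
Log2 ratio of KO over WT at 3 weeks for striated muscle genes by role, with points for genes well above background in both pools and open triangles for lower bounds where only the KO array was. Fast-fibre genes lie farthest right, up to a bound of 9.61, while heart-restricted genes lie near 0 apart from a bound of 3.86 and a ratio of -3.39.

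Markers of other tissues near the liver were read beside the muscle genes. Of 41 genes of pancreas, gut, mesothelium, lung, kidney and adrenal on the array, 19 were measured in both pools with 0 past 2-fold by the brightest probe, while a second probe for Amy2a5, pancreatic amylase, gave 1.23, from 5.24 to 12.3, against 0.09 on the first. Reg3g and Cela3b were on the WT array alone with bounds of -1.47 and -1.14. The summed signal by the brightest probes was 24.02 in WT and 26.1 in KO. The 35 hepatocyte markers, all measured, ran from -0.56 to 0.28 with summed signals of 3755 and 3720, so the defining genes of liver were alike in both pools. Leaving out the muscle lists, 250 genes were past 2-fold higher in place of 279, and 280 lower in place of 281. The promoter of Acta1, chr8:123894776-123894865 of GRCm38.p6 on the minus strand, is shown for contrast with the Mup promoters, with a CArG box and TATATAA in capitals.
Acta1 promoter: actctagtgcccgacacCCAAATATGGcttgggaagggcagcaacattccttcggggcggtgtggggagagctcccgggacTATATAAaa
A CArG box, bound by serum response factor, was in 7.55% of 106 windows of the muscle lists without the heart-restricted genes. It was in 1.63% of all windows. The E-box CANNTG, bound by myogenic factors, was in 82.1% of the same 106 windows and in 72.3% of all.

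Bright genes outside the Mup and muscle groups were also among the 20 with the highest ratios. Esm1, a secreted proteoglycan of endothelium, had 0.469 in WT and 2.10 in KO, a ratio of 2.16, with 0.1103 and 0.0959 at 6 weeks. Among 47 coagulation and serpin genes measured, with a median of 0.01, Serpina7, thyroxine-binding globulin, went from 1.07 in WT to 2.504 in KO, a ratio of 1.23. Thbd, thrombomodulin, had 0.52, and Fga 0.31 on one probe but -0.38 on another. Serpina1b was well above background in WT alone, with a ratio of -4.19 or less, while the near-identical Serpina1a, Serpina1d and Serpina1e had -0.09, -0.05 and -0.02.

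Genes that the liver shuts down after birth were partly higher. Tff3, a trefoil peptide, had 2.60 and 12.2, a ratio of 2.23, and was dim at 6 weeks, at 0.0872 and 0.192. Afp, the fetal counterpart of albumin, had 0.807 and 2.37, Spink1, a trypsin inhibitor, 0.872 and 1.93, and Dlk1, an imprinted growth regulator, 0.0579 and 0.141. The ratio of Dlk1 was 1.29, but 0.73 with normexp and quantile normalization. These were the 4 past 2-fold higher of 24 fetal liver genes measured, where 1.43% of all genes compared were. The median was 0.25 and 7 of the 24 were below 0, with Prom1 at -1.60 the only one past 2-fold lower. Of the imprinted growth genes, Meg3, Peg3 and Gpc3 had 0.79, 0.74 and 0.72. Plagl1 had 0.56 on one probe but -1.89 on another, and H19 0.14 on one but -1.19 on another. By the brightest probe 12 of 15 were above 0, where 48.7% of all genes compared were.

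The gene of hepcidin 2 was among the 20 bright genes with the lowest ratios. Hepcidin is the liver peptide that closes the iron exporter ferroportin, and the mouse has 2 genes, Hamp and Hamp2. Hamp2 had 33.0 in WT and 10.98 in KO, 3.01-fold lower, and Hamp 10.2 and 7.69, a log2 ratio of -0.40. At 6 weeks both were far brighter, at 126.4 and 143.3 for Hamp2. Because the genes are close copies, the stretches their probes share are shown up to the stop codon, with the 11 of 53 bases that differ in capitals.
Hamp probe: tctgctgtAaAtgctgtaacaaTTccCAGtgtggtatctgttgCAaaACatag
Hamp2 probe: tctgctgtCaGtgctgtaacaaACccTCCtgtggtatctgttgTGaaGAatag
The probes lie at chr7:31727490-31727549 and chr7:31707520-31707579 of mm9. Of 22 iron genes measured, Hamp2 was the only one past 2-fold, where 1.44% of all genes compared were past 2-fold lower. Among the other genes listed with the hepcidin axis, Bmp6 had 0.29, Id1 0.35 and Atoh8 0.83, and Hjv, the co-receptor, -0.28. The list of 11 storage and transport genes ran from -0.16 to 0.29.

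Orosomucoids, acute phase plasma proteins, were lower, and serum amyloids were not. Orm1 had 5.51 and 2.46, a ratio of -1.17, Orm2 7.09 and 3.33, a ratio of -1.09, and Orm3 -0.86. Saa1 and Saa2 had 0.79 and 0.93, from 7.88 to 13.6 and from 5.78 to 11.01. Of 35 acute phase genes measured, Orm1 and Orm2 were the ones past 2-fold, 24 had ratios above 0 and the median was 0.04. Of all genes compared 1.44% were past 2-fold lower and 48.7% above 0. The orosomucoid genes are near-identical, so their probes may not be independent.

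Genes induced through the xenobiotic receptors CAR, PXR and AHR were mostly lower. Cyp2b10, the classic CAR target, had 39.9 in WT and 15.2 in KO, a ratio of -1.39, and 52.9 and 61.2 at 6 weeks, so the KO pool at 3 weeks was the lowest of the 4. Cyp2c55 had 0.916 and 0.393, a ratio of -1.22. With Akr1b7 they were the 3 past 2-fold of 26 measured genes, 21 targets and 5 receptors, where 1.44% of all genes compared were past 2-fold lower. Ratios above 0 were found for 3 of the 21 targets and 3 of the 5 receptors, against 48.7% of all genes. The median of the targets was -0.32, and Abcb1a, Aldh1a1 and Nqo1 followed at -0.89, -0.80 and -0.78. Of the receptors themselves, Nr1i3 (CAR) had -0.21 and Nr1i2 (PXR) 0.19. Cyp3a11, the main PXR target, had 127.6 and 83.4, a ratio of -0.61.

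Antioxidant genes under NRF2 leaned lower. Of 26 redox enzymes measured 1 was above 0, with a median of -0.38, where 48.7% of all genes compared were above 0. Over the 33 genes of the list, regulators included, 3 were above 0 and the median was -0.23. Cbr3, a carbonyl reductase, had 1.96 and 0.584, a ratio of -1.75, and was the only one past 2-fold. Gsta4, Ugdh and Gclc, which starts glutathione synthesis, had -0.83, -0.79 and -0.75. Of the 7 regulators 2 were above 0, with a median of -0.02. Nfe2l2, which is NRF2, had -0.02 and Keap1 0.12. Conjugating enzymes were similar, with 7 of 38 measured sulfotransferase, glucuronosyltransferase and glutathione S-transferase genes above 0.

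Few genes of glucose and fat metabolism were past 2-fold. Of 38 genes of glucose and glycogen metabolism 19 were above 0, with a median of 0.05. Ppp1r3g, a glycogen-targeting subunit of protein phosphatase, had 0.795 in WT and 2.05 in KO, a ratio of 1.37. Ppargc1a, a coactivator induced by fasting, had 2.02 and 3.99, a ratio of 0.98, with 0.87 on its second probe. Pck1 stood at 0.28, Pklr at -0.55 and Khk at -0.30.

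No gene of fatty acid synthesis was past 2-fold, with Scd1 at -0.71, Me1 at -0.67, Fasn at -0.64 and Acss2 at -0.63 the lowest of 34. Ces1g, a triglyceride hydrolase, had 11.7 and 5.43, a ratio of -1.11, Ces1d -0.48, and Hilpda, a lipid droplet protein, 0.87. Of 48 fatty acid oxidation genes and 27 of apolipoproteins and VLDL assembly none was past 2-fold, with medians of -0.02 and 0 and Apoa4 the highest apolipoprotein at 0.90. Asns, which makes asparagine and responds to amino acid shortage, had 1.63 and 3.84, a ratio of 1.24, while the 29 genes of the integrated stress response had a median of 0.09.

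**Figure D4:**
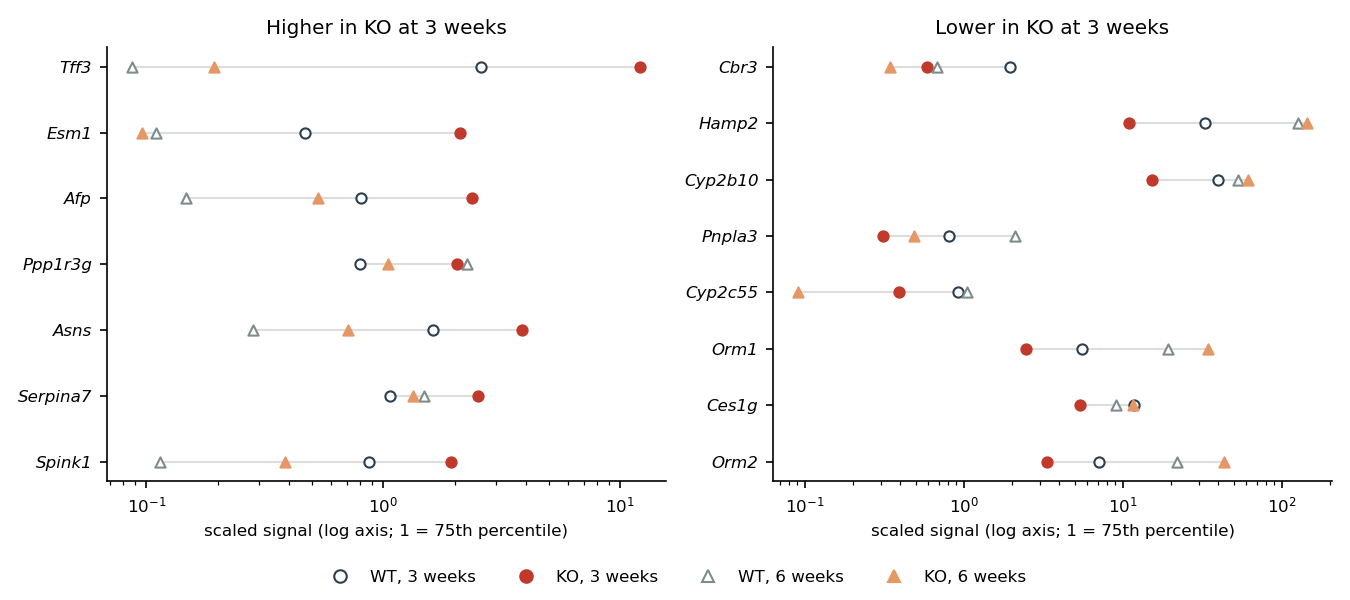
Scaled signal (log axis) on the 4 arrays for genes outside the Mup, sex-biased and muscle groups that were higher (left) or lower (right) in KO at 3 weeks, ordered by ratio, symbols as in the plot of Mup genes. The KO circle of Tff3 and Esm1 is the highest of the 4 arrays, and that of Hamp2, Cyp2b10, Orm1 and Orm2 the lowest.

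Several genes past 2-fold were dim, and their ratios rest on 1 array per genotype. Ucp1, the uncoupling protein of brown fat, had 0.287 and 0.0454, a ratio of -2.66, with 0.206 and 0.178 at 6 weeks. Cidea, a lipid droplet protein of brown fat and fatty liver, had 0.351 and 0.114, a ratio of -1.63. The white fat genes Adipoq, Plin1 and Fabp4 had 0.07, -0.74 and 0.70, and Lep was above background in neither pool. Npas2, a clock transcription factor, had 0.235 and 0.0470, a ratio of -2.32, and was the 1 of 27 clock genes past 2-fold, with Nr1d1 at 0.71, Dbp at 0.57 and Arntl at -0.45. Nr6a1, an orphan nuclear receptor, had 0.201 and 0.0488, a ratio of -2.04.

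Immediate early genes, which respond within minutes to stimulation or to handling of tissue, held Fos at -1.45, from 0.379 to 0.138, and Egr1 at -0.86, from 3.57 to 1.97. Atf3, Ier3 and Maff had 0.49, 0.54 and 0.52, and the median of 26 genes was 0.05. Time of collection and feeding state are not given in the labels.

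The core functions of hepatocytes were close to equal in both pools. Of the 55 respiratory chain genes none lay outside -0.14 to 0.12. Urea cycle and ammonia genes ran from -0.27 to 0.28, cholesterol genes from -0.54 to 0.36 with Mvd the lowest, and bile acid synthesis genes from -0.50 to 0.69 with Nr0b2, the repressor SHP, the highest. Pericentral genes, those expressed around the central vein, had 17 of 19 ratios above 0 with a median of 0.15, and periportal genes 7 of 17 with -0.05. Of all genes compared 48.7% were above 0. Tbx3 and Axin2, targets of Wnt signals at the central vein, had 0.83 and 0.61, and none of the 36 was past 2-fold by the brightest probe. Another Axin2 probe was on the KO array alone, with a bound of 4.29. Among hepatocyte transcription factors Foxa2 had -0.56, with -0.61 on a second probe, Onecut1 -0.47 and Hnf4a 0.08.

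Folding genes of the endoplasmic reticulum leaned slightly higher, with 21 of 27 above 0, where 48.7% of all genes compared were. Their median was 0.10 and their range from -0.29 to 0.39. A dim second probe for Dnajb11 gave 2.89, against 0.11 on the first. The cytosolic heat shock genes had a median of -0.03. Cryab, at 1.71, was the one past 2-fold and is also a muscle gene. Metallothioneins Mt1 and Mt2 had 0.44 and 0.55, from 110.6 to 150.3 and from 76.5 to 111.9, with a second Mt1 probe at -0.37.

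**Figure D5:**
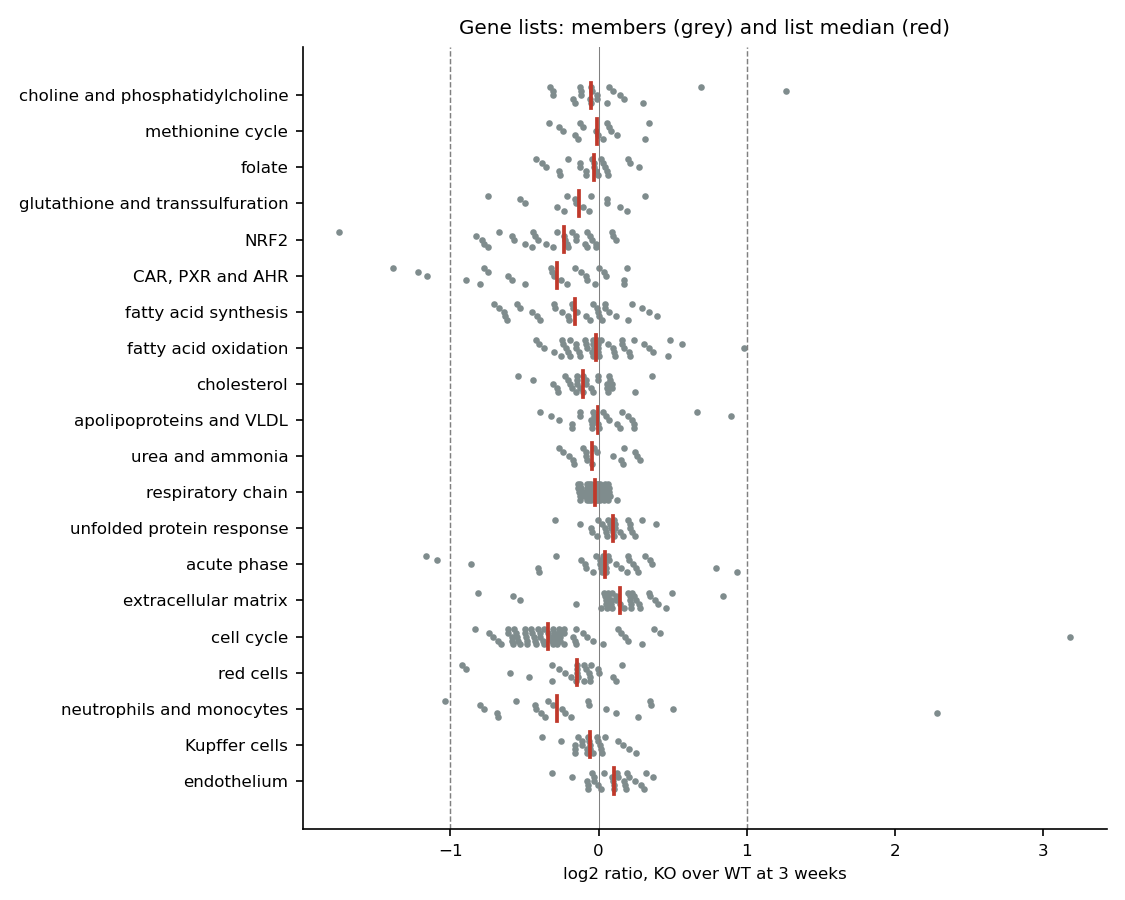
Log2 ratio of KO over WT at 3 weeks for the members of 20 gene lists well above background in both pools (grey points) with the median of each list (red bars) and 2-fold marked by dashed lines. The cell cycle list has the lowest median at -0.34 and extracellular matrix the highest at 0.15, while the respiratory chain spans -0.14 to 0.12.

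Cell division genes were mostly lower in KO, by a small amount. Of 63 measured, 9 had ratios above 0, where 48.7% of all genes compared did. The median was -0.34, with replication genes at -0.34 and mitotic genes at -0.42. Mki67, the proliferation antigen, had 3.13 and 2.15, a ratio of -0.54 on both of its probes. Cdk1, the mitotic kinase, had 0.625 and 0.418, a ratio of -0.58, with -0.70 on a second probe, and Mcm5, of the replication helicase, 2.04 and 1.34, a ratio of -0.61. The 9 genes of G1 entry and its inhibitors differed, with 6 above 0 and Ccnd1 at 0.20. Stil, a centriole gene, was the one past 2-fold, at 3.19, from 0.0729 to 0.663. The summed signal of the list was 115.5 in WT and 96.3 in KO, and 62.8 and 43.1 at 6 weeks.

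Blood cell genes measured in both pools leaned lower as well. Of 26 red cell genes measured 4 were above 0, with a median of -0.14, where 48.7% of all genes compared were above 0. Ahsp, which stabilises free alpha globin, had 0.481 and 0.258, Slc4a1 -0.60, and Hba-a1, alpha globin, 94.8 and 83.2. Of 24 neutrophil and monocyte genes 7 were above 0, with a median of -0.28. Ltf, Camp and Mpo, of neutrophil granules, had -0.80, -0.77 and -0.68, and Ngp -1.04, or -0.50 with normexp and quantile normalization, but Pglyrp1 2.28, from 0.0386 to 0.188. B cell genes had 2 of 13 above 0 with a median of -0.22. On the KO array alone were 1 red cell gene, 4 neutrophil genes and 1 B cell gene, and 0 genes of these lists were on the WT array alone. Past 2-fold among them were Ank1, of the red cell list, Stfa1, of the neutrophil list, and Pax5, of the B cell list. Their bounds were 2.22, 1.40 and 4.01. Kupffer cell genes, 25 measured, had 8 above 0 with a median of -0.06. Clec4f, the Kupffer cell lectin, had 10.2 and 9.30.

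Matrix genes leaned higher, with 33 of 37 above 0, where 48.7% of all genes compared were. Their median was 0.15, and 0 were past 2-fold. Fbln2 had 0.84, Thbs1 0.49 and Col6a1 0.45, while Col14a1 had -0.81, from 4.95 to 2.82, with -0.27 on a second probe. Stellate cell genes had 16 of 20 above 0, with Des at 1.99 the one past 2-fold and also a muscle gene. Endothelial genes had 18 of 27 above 0, with a median of 0.10 and Lyve1, of sinusoids, at 0.37.

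At the extremes of the whole ranking among genes with a symbol, muscle genes made up 12 of the 20 highest and 1 of the 20 lowest. Others among the highest were Smtnl1 at 4.51, Olfr1145 at 4.27, Olfr402 at 4.03, Lmtk3 at 3.61, Nell1 at 3.54, Slco1a1 and Hrc, of the muscle calcium store, at 3.32. The WT array alone lay outside the 6-week range for 17 of the 20 lowest. Among them were Arhgef38 at -4.30, Vwa2 at -3.78, Kirrel2 at -3.77 and Tmem221 at -3.68, with WT signals of 0.465, 0.212, 0.316 and 0.431 and KO signals from 0.0154 to 0.0337. In all 20 the WT signal was under 1. Olfactory receptor genes, which liver is not known to use, were read in the same way: of 185 measured in both pools 7 were past 2-fold higher and 10 lower, where 1.43% and 1.44% of all genes were. Another 87 were on the KO array alone and 36 on the WT array alone, and their bounds past 2-fold added 16 higher and 29 lower. With these, 23 were higher and 39 lower, where 2.86% and 2.89% of the 21754 genes on at least 1 array were. Olfactory receptor genes were thus past 2-fold more often than all genes, in both directions. Most are dim, with a summed signal over 1093 genes of 23.9 in WT and 22.4 in KO, and dim genes passed 2-fold most often. They were not compared with genes of like signal.

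Second probes bear on how far a ratio past 2-fold can be read. Of 35 genes past 2-fold higher with a second probe well above background in both pools, 28 had the same sign on it and 19 were past 2-fold. Of 23 lower genes, 15 had the same sign and 5 were past 2-fold. Over all 4668 genes with a second probe, 69.8% had the same sign on it, against 65.2% of these lower genes and 80.0% of the higher ones. Prom1, Pnpla3, Fabp3, Neb and Mup20 held on both probes, at -1.55, -1.28, 5.37, 2.54 and 2.53 on the second, and Ntrk2 and Vmn2r90 changed sign.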

How the data were processed

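Total RNA from pools of 5 livers was labelled with Cy3 and hybridised to 4 Agilent arrays on 1 slide. Per the submitters' processing notes, scans were read with Agilent Feature Extraction 11.5.1.1. The deposited scanner files hold intensity per spot, per the file headers, with the processed intensity already background-subtracted, and other columns deposited by the authors are flags that mark control spots, spots well above background and outliers.

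Control spots and outlier spots were left out, and 174 probes then had no value on every array. Spots of one probe were averaged, the probe with the highest mean log2 signal over the 4 arrays (the brightest) stood for a gene, and log2 signals were scaled to the 75th percentile of each array. The authors' deposited value table, which equals the processed intensity divided by that percentile, was an alternative. Probes were named through RefSeq accessions (27530 probes), current symbols (3544), synonyms (404) or, failing these, the file's own name (7951). Promoters are RefSeq's.

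The members and gene lists were chosen with earlier results of these data known. Named genes are Pnpla7, the 20 highest and 20 lowest ratios among genes with a symbol, the same among those with a mean signal of at least the 75th percentile, and in each list the members past 2-fold and otherwise the 4 highest, 4 lowest and 4 brightest. A few genes named for their role (receptors, regulators) were chosen after their values were seen. With 1 array per group no test was made, and the number of arrays limits the precision. The calculation was tested on simulated data with the same noise at every signal. That test does not bear on dim genes, whose ratios spread more widely. Some genes that meet the rule are not reported here. Alternatives were other background corrections, normalizations, filters, probe rules and thresholds. Python 3.11.15, numpy 2.4.6, pandas 2.3.3, matplotlib 3.10.9, R 4.3.3 and limma 3.58.1 (normexp, offset 50) were used.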

Additional observations from a re-analysis of the deposited data

Results flagged for a closer look

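Among the named genes well above background on all 4 arrays, 5 had opposite directions at the 2 ages: the ratio of KO over WT was past 2-fold at 3 weeks and past 2-fold in the opposite direction at 6 weeks, with 1 pool per group at each age, so the difference between ages was not tested. For Smtnl1, a muscle-associated protein, the log2 ratios were 4.51 in the younger pools and -2.88 in the older. Pglyrp1, a peptidoglycan recognition protein of neutrophils, had 2.28 and -1.32. Hsd3b5, of the male-biased list, had 1.97 and -1.16. Ppp1r3g, the glycogen-targeting subunit, had 1.37 and -1.12. Cdkl1, a kinase, had -3.22 and 1.29.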

How the results depend on the processing

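No paired analysis was possible because each group has 1 array. The counts of genes past 2-fold, 279 higher and 281 lower, became 170 and 142 with normexp correction and quantile normalization, 623 and 629 with genes on at least 1 array, and 1302 and 1211 with no filter. They were 579 and 785 at 1.5-fold and 150 and 124 at 3-fold, and 179 genes were lower where all 4 arrays had to be above background. The cause was not tested, apart from the filters and thresholds, which change the genes counted by construction. Leaving out the muscle lists, an alternative chosen after seeing the data, gave 250 and 280.

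Of 110 named genes past 2-fold, normexp correction with quantile normalization, 2 choices changed together, left 4 short of it (Cyp4a12a 0.69, Dlk1 0.73, Myf6 0.81 and Ngp -0.50) and brought 48 nearer 0 by over 1.5-fold. The mean over probes left 3 short (Acot3, Egfr at 0.84 and Ntrk2 at -0.05), and quantile normalization 1, Cyp3a16 at -0.97. Dim genes are limited by signal over background, and the Mup genes and Hamp2 were little moved: with normexp and quantile normalization Mup5 had 2.65, Mup19 2.10 and Hamp2 -1.58.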

Other observations

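The 3 items below lie outside the lists and the rule for named genes, and were picked because of their values. The probe A_55_P2073329, which has no gene symbol, had a signal of 8.31 in WT and 0.0293 in KO at 3 weeks, and 8.02 and 7.34 at 6 weeks. Its log2 ratio in the younger pools was -8.15. Gm8680, a predicted gene, had 1.14 and 29.5 at 3 weeks and 28.9 and 2.30 at 6 weeks, with 4.69 as the log2 ratio of the younger pools. Fst, follistatin, a secreted activin antagonist, had 1.04 and 2.89 at 3 weeks and 0.917 and 0.893 at 6 weeks, with 1.48 as that ratio.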
